A study of Mus musculus with 80 samples.

Results

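The 40 genes described here form the interferon-stimulated and class I antigen presentation module of the mouse, followed across 4 tissues and 4 genotypes. They were listed by name, with no threshold on a measured value but with earlier results of these data known, and all 40 were found among the 32764 genes counted in these libraries. Their roles were 4 transcription factors (Stat2, Irf1, Irf7 and Irf9), 3 sensors of foreign RNA or DNA (Ifih1, Ddx58 and Zbp1), 15 antiviral effectors (Ifit1, Ifit2, Ifit3, Oas1a, Oas2, Oas3, Oasl1, Oasl2, Mx1, Mx2, Rsad2, Bst2, Xaf1, Ifi44 and Ifi35), 5 genes of the ISG15 conjugation system and of ADP-ribosylation (Isg15, Usp18, Parp9, Parp14 and Dtx3l), 6 interferon-inducible GTPases (Gbp2, Gbp3, Gbp5, Igtp, Irgm1 and Iigp1) and 7 genes of the MHC class I pathway (B2m, Tap1, Tap2, Tapbp, Nlrc5, H2-K1 and H2-D1). Each of the 40 passed the filter on low counts in every tissue.

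RNA-seq libraries came from brown fat (BAT), skeletal muscle, liver and the inguinal depot of white fat (iWAT) of wildtype (WT) mice, of mice lacking FGF21 (FGF21 KO), of mice lacking UCP1 (UCP1 KO) and of mice lacking both (dKO), with 5 libraries in each of the 16 groups and 80 in all. FGF21 is a metabolic hormone and UCP1 is the uncoupling protein of the brown fat mitochondrion. All mice were males on a C57BL/6J background, bred at 30 °C, moved to room temperature at an age of 10 to 12 weeks and given a high-fat diet for 3 weeks before tissues were taken after 2 to 3 hours without food. Both knockouts are constitutive and present in every cell, so that a difference in 1 tissue cannot be assigned to loss of the protein in that tissue. The genotype label of the dKO libraries writes the second deleted gene as FGF12, and it was read as FGF21 from the study's methods and from the Fgf21 counts given below. The labels do not link a library to an animal, and p-values therefore measure the spread between libraries.

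Interferons are secreted proteins that bind receptors on most nucleated cells. Type I interferons signal through JAK1 and TYK2 to a complex that holds STAT2 and IRF9 and binds the interferon-stimulated response element (ISRE) in front of its target genes, while interferon gamma acts on genes that carry the gamma-activated sequence (GAS). The induced proteins block viral entry, degrade or sequester viral RNA, and raise the display of peptides on MHC class I, for which TAP1 and TAP2 carry peptides into the endoplasmic reticulum, tapasin (Tapbp) loads them, B2m forms the light chain and NLRC5 acts as the transactivator. In adipose tissue these genes are expressed by adipocytes and by resident immune cells. In bulk libraries, a change in the number of cells of a type and a change in RNA per cell cannot be told apart.

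Total counts per library ranged from 28691377 to 50380696 with a median of 38022853. Fgf21 had at most 3 counts in any FGF21 KO or dKO library, whereas WT BAT held 7 to 10 and UCP1 KO BAT 353 to 1728. WT libraries held 98548 to 216085 Ucp1 counts in BAT and 109 to 776 in iWAT, and UCP1 KO libraries 24291 to 60779 and 3942 to 20264, so the gene-level count does not check the UCP1 KO label. The tissue labels matched the markers: a marker score, the mean of log2(CPM by library total + 0.1) over a list, was 13.41 to 13.70 for skeletal muscle genes in muscle, 11.42 to 12.42 for hepatocyte genes in liver, 7.84 to 8.98 for brown adipocyte genes in BAT and 9.54 to 11.52 for adipocyte genes in iWAT. In iWAT 9 libraries, namely 2 WT, 4 FGF21 KO, 1 UCP1 KO and 2 dKO, had a lymph node score (B and T cell genes) above 4, and the other 11 were between -0.32 and 1.68. For WT, FGF21 KO, UCP1 KO and dKO in turn, the BAT libraries had skeletal muscle scores of 1.29 to 3.41, 1.39 to 5.10, 2.64 to 9.83 and 3.06 to 8.78, and macrophage scores of 3.86 to 4.09, 3.66 to 4.33, 4.56 to 6.06 and 4.15 to 5.19. These scores are set beside the results they move with.

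Promoter sequences show what several of these genes share. The window of 250 bases before the annotated start was searched in RefSeq promoters on GRCm38.p6 for the ISRE core, which is GAAA, any 2 bases and GAAA again (read on both strands, so that TTTC, any 2 bases and TTTC also counts), and for the GAS letters TTCNNNGAA, which read the same on both strands. The motifs were searched separately, so that a base may belong to both. Of the 40 members 30 had a promoter, and Zbp1, Mx1, Mx2, Oas2, Usp18, Parp9, Parp14, Iigp1, Nlrc5 and Tap2 had none. The ISRE core was present in 14 of the 30 (46.7%), against 3.46% of 27025 genes with a promoter in the same window, and the GAS letters in 6 of the 30, against 8.13% of genes. Both motifs occurred in 4 members (Oas1a, Bst2, Gbp5 and Igtp) and neither in 14. All 5 GTPases with a promoter and 6 of 12 antiviral effectors carried the ISRE core, but only B2m of 5 class I genes did. A match is a run of letters, not a measured binding site.

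Stretches around the ISRE core are printed for 6 members whose BAT values are given further on: the ubiquitin-like modifier Isg15 (chr4:156200825-156200934, minus strand), the RNA-binding effector Ifit1 (chr19:34640754-34640863, plus strand), the oligoadenylate synthetase Oas1a (chr5:120907526-120907589, minus strand), the membrane tether Bst2 (chr8:71537537-71537646, minus strand), the radical SAM enzyme Rsad2 (chr12:26456513-26456622, minus strand) and the class I light chain B2m (chr2:122147498-122147607, plus strand). Capitals mark bases inside a match, overlapping matches being joined, and each sequence reads 5′ to 3′ on the strand of its gene.
Isg15: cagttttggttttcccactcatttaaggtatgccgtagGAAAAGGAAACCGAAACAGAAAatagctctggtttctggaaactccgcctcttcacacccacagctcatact
Ifit1: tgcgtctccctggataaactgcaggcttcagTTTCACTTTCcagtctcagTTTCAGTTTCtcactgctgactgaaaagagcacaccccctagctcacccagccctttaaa
Oas1a: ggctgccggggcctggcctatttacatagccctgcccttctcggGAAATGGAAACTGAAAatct
Bst2: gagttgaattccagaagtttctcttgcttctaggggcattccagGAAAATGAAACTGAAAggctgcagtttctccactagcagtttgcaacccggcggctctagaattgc
Rsad2: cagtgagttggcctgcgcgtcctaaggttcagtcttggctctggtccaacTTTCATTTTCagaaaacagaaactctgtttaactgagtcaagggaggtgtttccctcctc
B2m: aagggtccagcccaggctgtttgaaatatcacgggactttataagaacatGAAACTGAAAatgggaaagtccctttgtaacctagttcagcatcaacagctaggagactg
Isg15 held 3 overlapping matches, Ifit1, Oas1a and Bst2 held 2 each, and Rsad2 and B2m held 1. The match that the stretch was centred on began 66 bases before the start in Isg15, 85 in Ifit1, 14 in Oas1a, 124 in Bst2, 120 in Rsad2 and 139 in B2m.

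Neighbouring members formed 7 clusters of genes less than 1 Mb apart, which held 20 of the 40 members. On GRCm38 these were Parp14, Dtx3l and Parp9 (chr16:35832874-35972605), Mx1 and Mx2 (chr16:97447035-97560900), Tapbp, H2-K1, Tap1 and Tap2 (chr17:33915899-34216321), Ifit2, Ifit3 and Ifit1 (chr19:34550694-34650009), Gbp5, Gbp3 and Gbp2 (chr3:142493978-142638008), Oasl2 and Oasl1 (chr5:114896936-114937915) and Oas2, Oas3 and Oas1a (chr5:120730333-120907521). Dtx3l (chr16:35926511-35939151, minus strand) and Parp9 (chr16:35938470-35972605, plus strand) overlap at their 5′ ends, and since the strand option of the counting was not stated, reads in the overlap cannot be assigned between them. Mx2 is annotated as a polymorphic pseudogene. Reads shared by near-identical copies, as in the Ifit, Oas, Gbp and H2 families, could have been dropped in the counting. No member lay close to a deleted gene: Nlrc5 and Bst2 were 11.14 and 11.75 Mb from Ucp1 on chromosome 8, and Irf7 was 95.65 Mb from Fgf21 on chromosome 7.

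In WT mice the module was expressed at low levels in BAT and muscle and at higher levels in liver and iWAT. Levels are given as counts scaled to library size (CPM) per kb of annotated exon, with TMM scaling over all 80 libraries. B2m was the highest member in each tissue, with medians of 2396 in liver, 1918 in iWAT, 531 in BAT and 177 in muscle, and Oas3, a synthetase of 2-5A that activates RNase L, was the lowest, with 0.367, 0.850, 0.0525 and 0.0493 in the same order. Over the 40 members the median level was 7.69 in liver, 7.16 in iWAT, 3.61 in BAT and 2.39 in muscle. By its median 20 members were highest in liver, 19 in iWAT and 1 in BAT (Rsad2), and 36 were lowest in muscle. With libraries scaled by their totals alone, 33 members were highest in iWAT and 7 in liver, so the order of these 2 tissues depends on the scaling.

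The spread between libraries left some neighbours in this order undivided. The 5 iWAT libraries of 37 members all lay above the 5 BAT libraries, against 27.2% of 18297 genes, and the 3 others overlapped. The macrophage score was also apart, at 7.09 to 7.87 in WT iWAT against 3.86 to 4.09 in WT BAT and 4.26 to 5.39 in WT liver, and 2 of the 5 WT iWAT libraries had the high lymph node score, and their part in these levels was not tested. Between iWAT and liver 12 members were wholly higher in iWAT, against 32.4% of genes, 10 were wholly higher in liver, against 31%, and 18 overlapped. The liver libraries were wholly above the BAT libraries for 28 members, against 30.4%, and BAT was wholly above muscle for 22, against 31.7%. The order liver, iWAT, BAT, muscle held for the medians of 20 members and the order iWAT, liver, BAT, muscle for those of 11. By role, the median in BAT was 4.16 for the transcription factors, 1.69 for the sensors, 2.00 for the antiviral effectors, 3.63 for the ISG15 system, 6.87 for the GTPases and 34.6 for the class I genes, and in muscle it was 2.66, 1.12, 1.48, 2.65, 3.59 and 8.76.

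**Figure D1:**
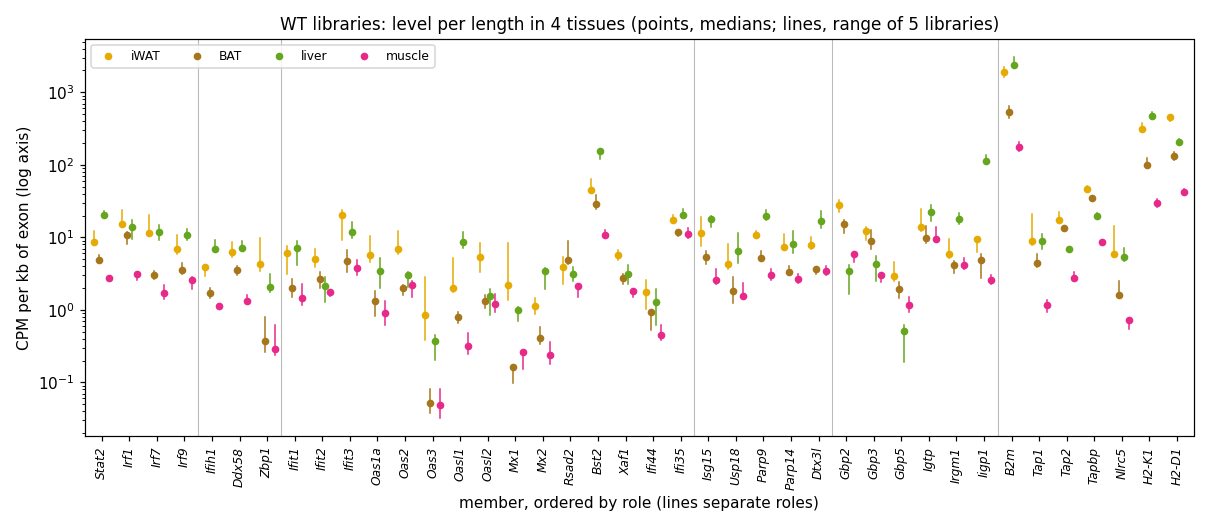
Level of the 40 members in WT libraries, in CPM per kb of exon on a log axis, with members along the horizontal axis in order of role. Points are medians and lines the range of 5 libraries, and B2m, H2-K1 and H2-D1 stand highest while Oas3 in BAT (0.0525) and muscle (0.0493) stands lowest.

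In BAT the module differed between genotypes. Over the 4 genotypes 29 of the 40 members passed edgeR's quasi-likelihood test at an adjusted p under 0.01 (Benjamini-Hochberg over all genes tested), against 29.7% of 15729 genes. The count ran from 14 (without UCP1 KO replicate 2) to 39 (without dKO replicate 2) with 1 library left out, and with a covariate added was 16 for the skeletal muscle score (17.1% of all genes) and 1 for the macrophage score (5.54%). Over the 4 genotypes 7 of the 8 macrophage and 10 of the 10 skeletal muscle genes were called too. So were 7 of 7 MHC class II, 4 of 5 hepatocyte and 1 of 8 lymph node genes, but none of 5 endothelial genes. All 15 antiviral effectors and all 5 genes of the ISG15 system were called, along with 2 of 4 transcription factors, 1 of 3 sensors, 2 of 6 GTPases and 4 of 7 class I genes. The smallest adjusted p belonged to Dtx3l (7.22e-05), an E3 ligase that pairs with Parp9, followed by Parp9 (0.000303), Rsad2 (0.000337), Ifi44 (0.000348), Oas2 (0.000544), Mx1 (0.000566), Oasl1 (0.000578), Oas3 (0.000642), Irf7 (0.00191), Zbp1 (0.00194), Isg15 (0.00203) and Tap2 (0.00254).

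**Figure D2:**
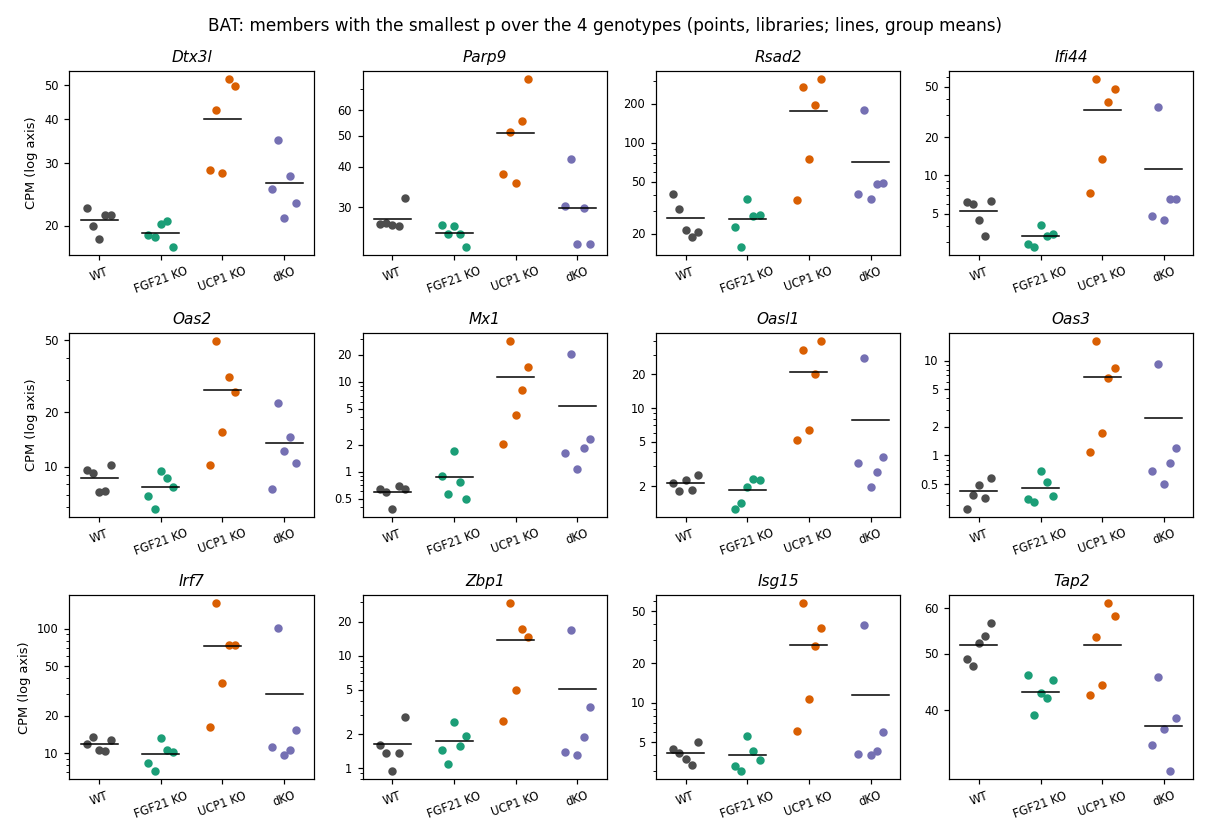
CPM in BAT (log axis) of the 12 members with the smallest p over the 4 genotypes, 1 point per library and 1 line per group mean. In 11 panels 4 or 5 UCP1 KO libraries and at least 1 dKO library lie above the WT and FGF21 KO libraries, while Tap2 has its lowest mean in dKO.

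The comparison of UCP1 KO with WT asks what loss of UCP1 does while FGF21 is intact. In BAT 23 of the 40 members rose and none fell, where 25.2% of all genes were called and 13.8% were called higher. With 1 library left out the count ran from 13 (without WT replicate 3 or UCP1 KO replicate 2) to 33 (without UCP1 KO replicate 1). Of the 8 macrophage genes 7 rose as well (median log2 fold change 1.18), and of the 10 skeletal muscle genes 6 did (median 4.82). With the macrophage score as a covariate 0 of the 40 members were called (2.68% of all genes) and the median was -0.21. The macrophage scores of the 2 groups did not overlap, and how well that fit separates genotype from score was not tested. With the skeletal muscle score in its place 18 members were called (19.8% of all genes), all of them among the 23. The median log2 fold change of the 40 was 1.06, against 0.01 over all genes tested, and 39 of 40 lay above 0 (50.9% of all genes). The members called were 13 of 15 antiviral effectors, 5 of 5 genes of the ISG15 system, 2 of 7 class I genes and 1 each of the 4 transcription factors, 3 sensors and 6 GTPases. For 13 members every UCP1 KO library lay above every WT library, against 11.8% of all genes.

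Among the antiviral effectors the largest difference was that of Mx1, a gene of the dynamin-like GTPase family whose protein was not measured. Its CPM values, scaled by TMM within the tissue, were 0.639, 0.597, 0.385, 0.683 and 0.637 in WT and 2.01, 28.2, 4.22, 8.06 and 14.5 in UCP1 KO, so that all UCP1 KO libraries were higher but differed among themselves over more than 1 order of magnitude. The log2 fold change was 4.26 ± 0.85 (SE), adjusted p = 0.000728. Oas3 was 0.274, 0.386, 0.490, 0.358 and 0.579 CPM in WT and 1.10, 15.9, 1.73, 6.50 and 8.29 in UCP1 KO, again without overlap (3.99 ± 0.84, adjusted p = 0.00109). Oasl1, an OAS-like protein that restrains Irf7 translation, was 2.13, 1.79, 2.27, 1.85 and 2.52 CPM in WT and 5.18, 33.1, 6.31, 20.1 and 39.5 in UCP1 KO (3.30 ± 0.70, adjusted p = 0.0012). The same 3 libraries, replicates 2, 4 and 5, were the highest for each of these genes.

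Rsad2 (viperin) makes a chain-terminating nucleotide. It was 40.5, 31.1, 21.5, 18.9 and 20.7 CPM in WT and 36.3, 269, 74.96, 196 and 309 in UCP1 KO, where replicate 1 lay within the WT range (2.74 ± 0.53, adjusted p = 0.000568). Ifi44, a microtubule-associated protein, was 6.18, 5.97, 4.44, 3.32 and 6.25 CPM in WT and 7.27, 57.3, 13.4, 37.8 and 48.0 in UCP1 KO (2.64 ± 0.57, adjusted p = 0.00141). Oas2 was 9.55, 9.27, 7.31, 7.32 and 10.2 CPM in WT and 10.2, 49.3, 15.6, 31.4 and 25.9 in UCP1 KO (1.60 ± 0.33, adjusted p = 0.000975). For Ifi44 and Oas2 the lowest UCP1 KO library stood just above the highest WT library. The other called effectors were the RNA-binding Ifit1 (2.53 ± 0.63, adjusted p = 0.00412), Ifit3 (2.51 ± 0.65, adjusted p = 0.00506) and Ifit2 (1.56 ± 0.43, adjusted p = 0.00801), Mx2 (2.06 ± 0.54, adjusted p = 0.00567), Oas1a (1.99 ± 0.47, adjusted p = 0.0028), Oasl2 (1.81 ± 0.45, adjusted p = 0.00378) and Bst2, also called tetherin (1.44 ± 0.40, adjusted p = 0.00864). Xaf1 and Ifi35 did not pass, at 1.04 ± 0.30, adjusted p = 0.0106 and 0.42 ± 0.15, adjusted p = 0.0297.

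Of the ISG15 system 5 of 5 members rose, none of which was called with the macrophage score as a covariate, where Isg15 (-0.32), Usp18 (-0.48) and Parp14 (-0.11) lay below 0. Isg15 itself, the ubiquitin-like protein that is attached to other proteins, was 4.47, 4.18, 3.71, 3.38 and 5.07 CPM in WT and 6.12, 57.2, 10.7, 27.1 and 37.4 in UCP1 KO, with no overlap (2.73 ± 0.65, adjusted p = 0.00272). Usp18, which removes ISG15 and restrains signalling at the type I receptor, had a log2 fold change of 2.33 ± 0.58, adjusted p = 0.00399. Dtx3l showed the smallest p of the 40, at 22.4, 19.9, 18.4, 21.4 and 21.5 CPM in WT and 28.7, 42.4, 28.2, 52.0 and 49.6 in UCP1 KO (0.96 ± 0.16, adjusted p = 0.000151). Parp9 was 26.6, 26.8, 26.4, 26.2 and 32.1 CPM in WT and 38.0, 51.2, 35.6, 55.4 and 74.9 in UCP1 KO (0.89 ± 0.18, adjusted p = 0.000737), and Parp14 had 0.80 ± 0.22, adjusted p = 0.00671. Isg15 and Usp18 thus moved by over 4-fold, and the 3 neighbours on chromosome 16 by under 2-fold.

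Of the transcription factors Irf7, the regulator that amplifies type I interferon production, was called. It was 11.8, 13.6, 10.5, 10.4 and 12.6 CPM in WT and 16.1, 159.7, 36.6, 74.5 and 73.4 in UCP1 KO, with every UCP1 KO library above every WT library (2.61 ± 0.63, adjusted p = 0.00322). Stat2 (0.81 ± 0.25, adjusted p = 0.0168), Irf9 (0.50 ± 0.22, adjusted p = 0.0702) and Irf1 (0.14 ± 0.20, adjusted p = 0.613) did not pass. Of the sensors Zbp1, which binds Z-form nucleic acids and can trigger necroptosis, was 1.61, 1.37, 0.944, 1.37 and 2.87 CPM in WT and 2.66, 29.2, 4.99, 17.3 and 14.7 in UCP1 KO (3.07 ± 0.71, adjusted p = 0.00237). The RNA helicases Ifih1 (MDA5) and Ddx58 (RIG-I) had 0.73 ± 0.27, adjusted p = 0.039 and 0.61 ± 0.23, adjusted p = 0.0404, below the threshold for a call.

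The median log2 fold change was 0.67 over the 7 class I genes and 0.94 over the 6 GTPases, against 2.06 over the 15 effectors, and differences between roles were not tested. B2m was 477, 405, 388, 470.0 and 575 CPM in WT and 516, 1014, 615, 1135 and 881 in UCP1 KO, with replicate 1 of UCP1 KO inside the WT range (0.85 ± 0.21, adjusted p = 0.0035). Nlrc5 was 19.3, 14.3, 12.8, 12.7 and 22.0 CPM in WT and 16.3, 49.0, 28.6, 63.4 and 36.4 in UCP1 KO (1.26 ± 0.29, adjusted p = 0.00201). The heavy chains H2-K1 (0.69 ± 0.20, adjusted p = 0.0123) and H2-D1 (0.60 ± 0.20, adjusted p = 0.0234) and the transporter subunit Tap1 (0.67 ± 0.22, adjusted p = 0.0215) missed the threshold, while the values of Tap2 (0.00 ± 0.10, adjusted p = 0.997) and Tapbp (-0.06 ± 0.11, adjusted p = 0.714) were close to 0. Within the class I genes of chromosome 17 the neighbouring members Tap1 and Tap2 therefore had different values, although the difference between them was not tested. Among the GTPases, which act on the membranes around intracellular pathogens, Iigp1 was 35.3, 29.8, 20.4, 16.6 and 29.0 CPM in WT and 27.4, 145, 51.7, 159 and 59.1 in UCP1 KO (1.75 ± 0.44, adjusted p = 0.00439), and Gbp3 (1.08 ± 0.37, adjusted p = 0.027), Gbp5 (0.95 ± 0.30, adjusted p = 0.0173), Igtp (0.94 ± 0.41, adjusted p = 0.0783), Gbp2 (0.80 ± 0.30, adjusted p = 0.041) and Irgm1 (0.49 ± 0.27, adjusted p = 0.16) were not called. By cluster, every member of the Parp, Mx, Ifit, Oas and Oasl clusters was called, and no member of the Gbp cluster or of the chromosome 17 class I cluster was.

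**Figure D3:**
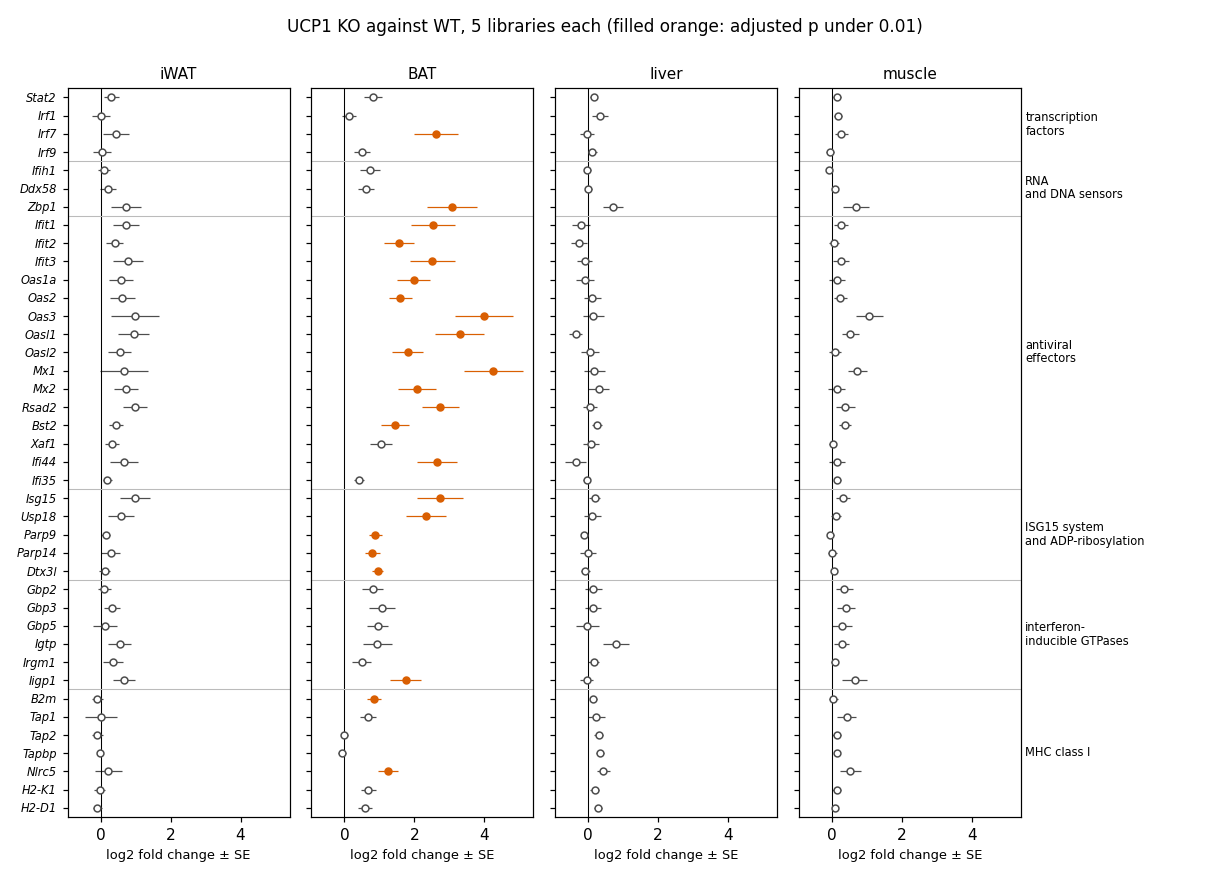
Log2 fold change of UCP1 KO against WT with its standard error for the 40 members in each tissue, 5 libraries per group, grouped by role. Filled orange points mark an adjusted p under 0.01, which 23 members reached in BAT and none in iWAT, liver or muscle.

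The UCP1 KO libraries of BAT were not alike. Replicate 2 held the highest value of all 20 BAT libraries for 25 members, replicate 4 for 12 and replicate 5 for 3. The antiviral effector level, the mean of log2(CPM + 0.1) over the 15 genes, was 2.98, 5.61, 3.61, 4.71 and 5.02 in UCP1 KO replicates 1 to 5, against 2.22 to 2.69 over the WT and 1.93 to 2.78 over the FGF21 KO libraries. The macrophage score of the same 5 libraries was 4.60, 6.06, 4.56, 5.46 and 5.96, and the skeletal muscle score 2.64, 9.83, 6.38, 5.33 and 2.90. Replicate 2 had both the highest effector level (5.61) and the highest skeletal muscle score (9.83) of the 5. Replicate 5, with an effector level of 5.02, had a skeletal muscle score of 2.90, inside the WT range. The part of skeletal muscle RNA in these levels was not tested beyond the fits with its score. In UCP1 KO against WT none of the 8 lymph node, 5 endothelial or 5 hepatocyte genes was called. Of the 5 adipocyte genes 1 fell (Adipoq, log2 fold change -1.15), as did 1 of the 5 brown adipocyte genes (Cox8b, -0.74).

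Macrophage genes were higher in UCP1 KO and dKO libraries than in WT. The 8 macrophage genes summed to 154 to 176 CPM in WT, 136 to 240.0 in FGF21 KO, 219 to 378 in dKO and 238 to 659 in UCP1 KO, and none of the 8 was at 0 in BAT. In dKO replicates 1 to 5 the score was 4.68, 5.19, 4.15, 4.88 and 4.72 and the effector level 2.56, 4.99, 2.45, 2.91 and 2.92, while the WT libraries had scores of 3.86 to 4.09. The part of macrophage RNA in the differences was not tested beyond the fits with its score.

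**Figure D4:**
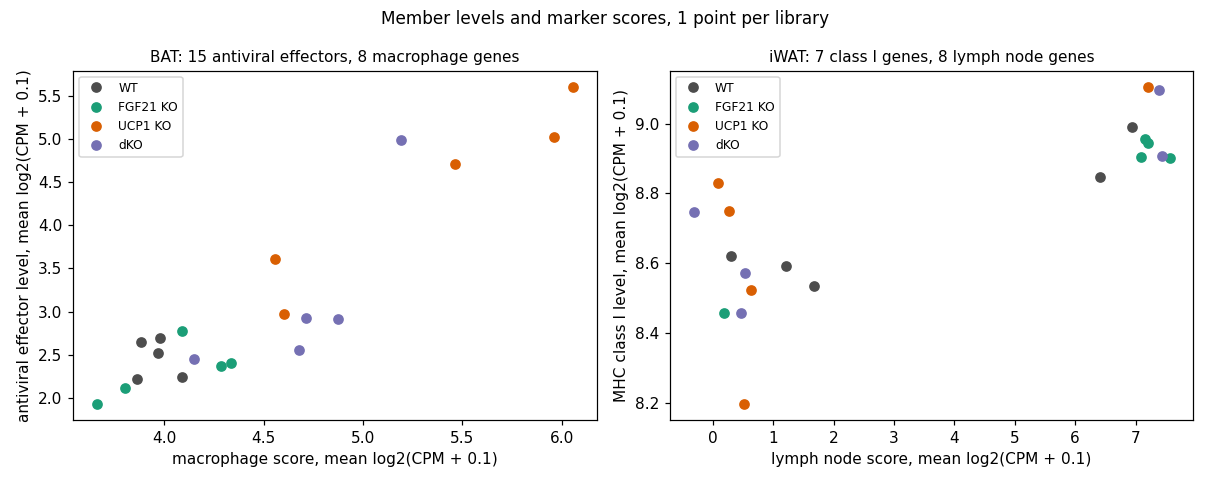
Member levels against marker scores, 1 point per library, both as mean log2(CPM + 0.1). In BAT the antiviral effector level and the macrophage score are both highest in UCP1 KO replicates 2, 4 and 5 and in 1 dKO library, and in iWAT the 9 libraries with a lymph node score above 4 all have a class I level of 8.85 or more, against 8.83 or less in the other 11.

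Other genes of the interferon pathway in BAT were counted from fixed lists. The background in UCP1 KO against WT was the 25.2% of all genes given above. Of 13 receptors and upstream signalling genes 4 were called, a share near that background: Ifngr2 (log2 fold change 0.60), Ifnlr1 (1.78) and Jak1 (0.49) rose in UCP1 KO against WT and Ifngr1 fell (-0.62), and the other 9, both subunits of the type I receptor among them, were not called. Of 13 genes of nucleic acid sensing 5 rose, namely Ikbke (1.25), Irf5 (1.67), Irf8 (1.66), Tlr7 (1.61) and Dhx58 (1.17). Irf5, Irf8 and Tlr7 are known from myeloid and lymphoid cells. All 7 MHC class II genes rose, by at least 0.91, and the class II transactivator Ciita rose most (1.495). Of 9 genes of the immunoproteasome and of peptide trimming 1 fell, the aminopeptidase Erap1 (-0.44), and none rose.

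Interferon transcripts themselves were scarcely counted. Over the 20 BAT libraries Ifnb1 had 8 counts in 3 libraries, at most 4 in one, and Ifna1, Ifna2, Ifna4, Ifnl2 and Ifnl3 had none, which allows up to 3 counts of each. Ifng, made by T and NK cells, had at most 10 counts in a BAT library, 37 in an iWAT library, 4 in a liver library and 2 in a muscle library. The 9 listed interferon genes together had 1, 1, 0, 0 and 1 counts in WT BAT, 2, 0, 0, 0 and 5 in FGF21 KO, 6, 5, 4, 7 and 9 in UCP1 KO and 1, 14, 4, 0 and 6 in dKO, replicates 1 to 5. Of these, Ifng gave 27 of 31 counts in UCP1 KO and 3 of 3 in WT, and the 14 counts of dKO replicate 2 were 10 of Ifng and 4 of Ifnb1. The UCP1 KO libraries did not overlap WT, with a summed 0.161 ± 0.0618 CPM (SD, n = 5) against 0.0173 ± 0.0159. No interferon gene passed the filter on low counts in BAT, liver or muscle, so none entered the fit there. In iWAT Ifng was tested and not called (over the 4 genotypes adjusted p = 0.479, UCP1 KO against WT log2 fold change -0.14).

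Loss of FGF21 alone left the BAT values of the module close to WT. None of the 40 members was called in FGF21 KO against WT (0% of all genes were), DESeq2 called none as well (0.191%), and 1 member had an unadjusted p under 0.05, against 8.55% of all genes. This was Tap2, at 49.0, 47.6, 52.3, 53.8 and 56.4 CPM in WT and 46.0, 39.2, 42.9, 41.9 and 45.0 in FGF21 KO, where each FGF21 KO library was below each WT library (-0.27 ± 0.10, adjusted p = 0.459), a lack of overlap seen in 3.79% of all genes in either direction. Ifi35 (-0.22 ± 0.15, adjusted p = 0.764) and Tap1 (-0.32 ± 0.22, adjusted p = 0.773) came next. The median of the 40 was -0.16, and 5 of 40 lay above 0, against 51.1% of all genes.

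The comparison of UCP1 KO with dKO asks what FGF21 adds once UCP1 is lost. No member was called in BAT by edgeR (0.0636% of all genes were), and DESeq2 called Tap2 and Parp9 (0.356% of all genes). All 40 log2 fold changes nevertheless lay above 0 (51% of all genes), with a median of 0.93, and 35 had an unadjusted p under 0.05, against 7.17% of all genes in the higher direction. The macrophage genes moved the same way, all 8 above 0 with a median of 0.60 and 6 at an unadjusted p under 0.05, as did 6 of the 9 genes of the immunoproteasome and of peptide trimming. All 5 hepatocyte (median -1.09, 4 at an unadjusted p under 0.05), all 5 adipocyte (-0.37) and all 10 skeletal muscle genes (-0.35) lay below 0. The part of these markers in the members' values was not tested. The smallest adjusted p were those of Tap2 (0.47 ± 0.10, adjusted p = 0.0835), Parp9 (0.78 ± 0.18, adjusted p = 0.0897) and Tap1 (0.90 ± 0.22, adjusted p = 0.128). Tap2 was 42.5, 53.4, 44.1, 61.1 and 58.0 CPM in UCP1 KO and 34.8, 45.7, 37.1, 31.4 and 38.8 in dKO. Parp9 was 38.0, 51.2, 35.6, 55.4 and 74.9 CPM in UCP1 KO and 30.2, 42.5, 23.0, 29.8 and 23.1 in dKO. The groups overlapped for every member, since dKO replicate 2 lay above the lowest UCP1 KO library for each.

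That library stood apart from the other 4 dKO libraries. Irf7 was 11.2, 102, 9.69, 10.6 and 15.3 CPM in dKO replicates 1 to 5, Isg15 4.08, 38.9, 3.98, 4.27 and 5.96 and Mx1 1.61, 20.1, 1.06, 1.85 and 2.30. Rsad2 was 40.1, 179.6, 37.1, 48.0 and 49.4 CPM and B2m 399, 809.9, 481, 439.6 and 505. For each of these genes replicate 2 was the highest dKO library, and for Irf7 and Isg15 the other 4 were near the WT range. Its antiviral effector level was 4.99, against 2.45 to 2.92 in the other 4. Its macrophage score of 5.19 was also the highest of dKO, against 4.15 to 4.88, while its skeletal muscle score of 3.06 was the lowest of dKO. Without it the members called over the 4 genotypes numbered 39 in place of 29. Those called in UCP1 KO against dKO, in dKO against FGF21 KO and in the interaction stayed at 0 without it, with Parp9 (0.94, adjusted p = 0.0195), Tap2 (0.55, adjusted p = 0.0235) and Tap1 (1.05, adjusted p = 0.0437) in UCP1 KO against dKO.

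The comparison of dKO with FGF21 KO asks what loss of UCP1 does where FGF21 is absent. No member was called, against 13.5% of all genes, while 16 had an unadjusted p under 0.05 (15 of them higher), against 40% of all genes, and DESeq2 called 4, against 19.5% of all genes. The median of the 40 was 0.37 and 37 lay above 0, against 50.4% of all genes. In the same comparison all 10 skeletal muscle genes (median log2 fold change 4.08, 10 with an adjusted p under 0.05 and none called), all 8 lymph node genes (1.31, 1 called), all 8 macrophage genes (0.43, 1 called) and all 5 hepatocyte genes (1.23, none called) lay above 0, and their part in the members' values was not tested. Mx1 had 2.61 ± 0.79, adjusted p = 0.0202, Ifi44 1.77 ± 0.57, adjusted p = 0.0263 and Oasl1 2.10 ± 0.68, adjusted p = 0.0277. Mx1 was 0.901, 0.563, 1.68, 0.761 and 0.501 CPM in FGF21 KO and Ifi44 was 2.90, 2.75, 4.10, 3.36 and 3.47 CPM in FGF21 KO against 4.82, 34.3, 4.48, 6.48 and 6.48 in dKO. Without dKO replicate 2 the log2 fold changes were 0.96 for Mx1 (adjusted p = 0.231), 0.75 for Ifi44 (adjusted p = 0.211) and 0.66 for Oasl1 (adjusted p = 0.328). For Ifi44 and Dtx3l the groups did not overlap, all dKO libraries being higher, as was the case for 8.84% of all genes. Of the other pathway genes Ikbke (0.95), Irf8 (1.17), H2-DMb1 (0.77) and Ciita (0.90) rose and Ifngr1, Il10rb and Erap1 fell.

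Whether the effect of UCP1 loss depended on FGF21 was tested as an interaction. No member passed (0% of all genes did), DESeq2 called none as well (0.00636%), and 4 members had an unadjusted p under 0.05, against 5.37% of all genes, Parp9 (0.64 ± 0.25, adjusted p = 0.904), Nlrc5 (1.00 ± 0.40, adjusted p = 0.904), Dtx3l (0.49 ± 0.22, adjusted p = 0.904) and B2m (0.63 ± 0.29, adjusted p = 0.904). All 40 interaction terms were above 0 (50.3% of all genes), that is the difference was larger with FGF21 present, with a median of 0.70. The terms of all 8 macrophage genes (median 0.72, 3 at an unadjusted p under 0.05), all 7 MHC class II genes (median 0.50) and all 10 skeletal muscle genes (median 0.70) were above 0 too, and their part was not tested. UCP1 KO, WT, dKO and FGF21 KO libraries enter several of these comparisons, so their values are not independent.

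In iWAT no member was called in any comparison. Over the 4 genotypes 0 of 40 passed, against 1.74% of 17380 genes, and Rsad2 (adjusted p 0.106), Bst2 (0.142) and Ifi44 (0.166) came closest, 4 members having an unadjusted p under 0.05, against 22.5% of genes. For UCP1 KO against WT 0.61% of all genes were called, and the 40 members had a median log2 fold change of 0.33 with 35 above 0 (45.5% of all genes) and 6 at an unadjusted p under 0.05, all higher (10.2% of all genes). Rsad2 was 33.7, 36.5, 26.6, 15.6 and 24.9 CPM in WT and 27.2, 42.4, 61.7, 96.9 and 43.3 in UCP1 KO (0.98 ± 0.35, adjusted p = 0.168). Isg15 was 19.4, 13.6, 12.9, 9.19 and 23.2 CPM in WT and 14.1, 37.4, 31.6, 57.4 and 13.3 in UCP1 KO (0.98 ± 0.43, adjusted p = 0.29). Bst2 was 83.7, 61.9, 65.3, 65.4 and 91.3 CPM in WT and 82.7, 99.3, 98.7, 144 and 73.4 in UCP1 KO (0.44 ± 0.20, adjusted p = 0.298). Of the 5 brown adipocyte genes 3 rose with UCP1 loss (median log2 fold change 3.56), and their score was 5.20 to 7.44 in UCP1 KO, 2.49 to 3.96 in WT and 2.48 to 4.32 in dKO, and its part in the members' values was not tested. The groups overlapped for Rsad2, Isg15 and Bst2, and UCP1 KO replicates 2 and 4 were the highest of the 20 libraries for 17 members each. Irf7 in iWAT was 87.8, 66.8, 68.3, 62.9 and 124 CPM in WT and 78.5, 157, 94.6, 179.9 and 47.6 in UCP1 KO, with overlapping groups.

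The other iWAT comparisons gave no call either. In FGF21 KO against WT no member was called (0.00575% of all genes were) or had an unadjusted p under 0.05 (17.4%), the median was -0.04, and Nlrc5 (0.66 ± 0.39, adjusted p = 0.331), Ifi44 (-0.63 ± 0.40, adjusted p = 0.346) and Mx1 (0.93 ± 0.69, adjusted p = 0.402) had the smallest p. In UCP1 KO against dKO none was called (0.466% of all genes were), 5 had an unadjusted p under 0.05, all higher (9.8%), the median was 0.37, and Bst2 (0.49 ± 0.20, adjusted p = 0.235), Ifit2 (0.58 ± 0.25, adjusted p = 0.281) and Oasl2 (0.74 ± 0.33, adjusted p = 0.303) led. There all 8 macrophage (median 0.26), all 10 skeletal muscle (4.38) and all 5 brown adipocyte genes (3.29, 1 called) lay above 0. All 8 lymph node genes lay below 0 (-0.98), and the part of these markers was not tested. In dKO against FGF21 KO none was called (0.0115%) or had an unadjusted p under 0.05 (8.62%), with Rsad2 (0.72 ± 0.35, adjusted p = 0.542), Tapbp (0.16 ± 0.09, adjusted p = 0.542) and B2m (0.20 ± 0.16, adjusted p = 0.555) first. The interaction gave none (0%), none at an unadjusted p under 0.05 (9.98%), a median of 0.36, and Zbp1 (1.14 ± 0.60, adjusted p = 0.553), Oas3 (1.49 ± 0.95, adjusted p = 0.656) and Mx2 (0.74 ± 0.49, adjusted p = 0.665) first. DESeq2 called no member in these iWAT comparisons, against 0.0115% to 7.27% of all genes. Of the pathway lists in iWAT only Mavs, the adaptor of the RNA sensors, passed over the 4 genotypes (adjusted p 0.00757), and no MHC class II gene did.

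Few members were split by the lymph node score in iWAT, 2 of the 40 being wholly higher in the 9 libraries with the high score, where 19.3% of all genes were. The class I level, a mean of log2(CPM + 0.1) over 7 genes, was 8.85 to 9.11 in the 9 libraries with a score above 4 and 8.20 to 8.83 in the other 11, with no overlap, and by library totals 8.90 to 9.31 and 7.90 to 8.66. Irf1 and Tap1 were the 2 members for which the libraries did not overlap: Irf1 was 128 to 173 CPM in the 9 libraries against 76.5 to 119.8 in the 11, and Tap1 was 141 to 217 CPM in the 9 libraries against 49.8 to 114 in the 11. The other 38 members overlapped, B2m among them. Of the 7 class I genes, Tap1, Tap2, Nlrc5 and H2-K1 had higher medians in the 9 libraries than in the 11. B2m (2297 against 2763 CPM), H2-D1 (1685 against 1870) and Tapbp (256 against 276) had lower medians. The antiviral effector level was 3.90 to 5.80 against 4.13 to 6.03. Because 4 of 5 FGF21 KO libraries and 1 of 5 UCP1 KO libraries had the high score, these libraries enter the iWAT comparisons unevenly, and with 1 left out at a time or with the score as a covariate the count of called members stayed at 0.

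Whether UCP1 loss acted differently in BAT and iWAT was tested in 1 model of all 80 libraries. The effect was larger in BAT for 7 members, where 11% of 17630 genes differed in either direction and 3.87% were higher in BAT. Markers split in the same way, with 7 of 8 macrophage and 6 of 10 skeletal muscle genes called in UCP1 KO against WT in BAT and none of either in iWAT, and their part was not tested. With 1 library left out the count ran from 3 (without iWAT UCP1 KO replicate 5) to 15 (without BAT UCP1 KO replicate 1). The 7 members were Mx1 (3.57 ± 0.84, adjusted p = 0.00124), Oas3 (2.99 ± 0.85, adjusted p = 0.00753), Oasl1 (2.33 ± 0.63, adjusted p = 0.00476), Irf7 (2.14 ± 0.57, adjusted p = 0.00414), B2m (0.92 ± 0.22, adjusted p = 0.0017), Dtx3l (0.81 ± 0.19, adjusted p = 0.000894) and Parp9 (0.71 ± 0.18, adjusted p = 0.00315), each value being the BAT effect minus the iWAT effect on the log2 scale. Over the 40 members 39 differences were above 0, the exception being Tapbp, and the median was 0.87 against 0.03 over all genes. The BAT and iWAT libraries of a group may come from the same mice, which the labels do not show. Mx1 in iWAT was 13.0, 8.92, 8.17, 19.3 and 49.9 CPM in WT and 11.9, 84.8, 14.0, 32.5 and 13.8 in UCP1 KO, and its WT libraries in iWAT were all above its WT libraries in BAT.

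In liver no member was called over the 4 genotypes or in the 3 comparisons given here. Over the 4 genotypes 0 passed, against 0.34% of 14407 genes, with Usp18 (adjusted p 0.222), Tapbp (0.314) and H2-D1 (0.374) first and 7 at an unadjusted p under 0.05 (11.6% of genes). In UCP1 KO against WT (0.0694% of all genes called) Tapbp was 52.9, 58.6, 51.1, 53.5 and 61.8 CPM in WT and 61.7, 66.1, 61.3, 90.3 and 70.0 in UCP1 KO (0.33 ± 0.11, adjusted p = 0.273), Zbp1 had 0.71 ± 0.29, adjusted p = 0.376 and H2-D1 0.29 ± 0.12, adjusted p = 0.389, and 6 members had an unadjusted p under 0.05, all higher (5.8%). In FGF21 KO against WT (0.229% of all genes called) 7 members had an unadjusted p under 0.05, all lower (7.54% of all genes in either direction), with a median of -0.22 over the 40. Ifi44 was 7.27, 5.96, 4.10, 2.82 and 9.16 CPM in WT and 2.51, 3.26, 2.80, 3.88 and 3.17 in FGF21 KO (-0.90 ± 0.30, adjusted p = 0.429), Usp18 had -0.71 ± 0.24, adjusted p = 0.456 and Ifit2 -0.63 ± 0.22, adjusted p = 0.487. The groups overlapped for these members. In UCP1 KO against WT all 10 skeletal muscle genes lay below 0 as well (median log2 fold change -1.65, 9 with an adjusted p under 0.05, none called). In UCP1 KO against dKO (0.00694% of all genes called) 11 members had an unadjusted p under 0.05, all higher (4.51%), with a median of 0.30, led by Tapbp (0.35 ± 0.11, adjusted p = 0.523), Usp18 (0.65 ± 0.24, adjusted p = 0.579) and Bst2 (0.38 ± 0.14, adjusted p = 0.579). UCP1 KO replicate 4 was the highest of the 20 liver libraries for 16 members and WT replicate 5 for 13. In that UCP1 KO library the MHC class II genes summed to 405 CPM, against at most 216 in the others, and the count of called members stayed at 0 without it. DESeq2 called no member in these liver comparisons, against 0.0416% to 1.34% of all genes. The skeletal muscle score was 1.62 to 3.70 in WT liver and 0.94 to 1.82 in FGF21 KO liver, and 7 of the 10 skeletal muscle genes fell in FGF21 KO, and their part in the liver values was not tested.

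In muscle no member was called in the same 4 tests either. Over the 4 genotypes 0 passed, against 0.086% of 15114 genes, with Isg15 (adjusted p 0.0336), Ifi44 (0.0518) and Bst2 (0.0762) first, 16 at an unadjusted p under 0.05 (16.3% of genes), and 3 called by DESeq2 (2.4% of genes). In FGF21 KO against WT (0.00662% of all genes called) 8 members had an unadjusted p under 0.05, all lower (12.9% of all genes in either direction). Ifi44 was 2.64, 2.23, 2.21, 1.92 and 3.08 CPM in WT and 1.37, 0.850, 1.29, 1.08 and 1.86 in FGF21 KO (-0.90 ± 0.24, adjusted p = 0.0651). Isg15 was 1.44, 2.16, 1.52, 1.58 and 2.24 CPM in WT and 1.14, 1.10, 0.908, 0.907 and 1.31 in FGF21 KO (-0.73 ± 0.21, adjusted p = 0.104). Parp14 was 18.1, 20.1, 18.1, 20.6 and 23.4 CPM in WT and 14.9, 13.9, 15.5, 14.8 and 17.3 in FGF21 KO (-0.39 ± 0.12, adjusted p = 0.139). The 5 hepatocyte genes were higher in the same comparison (median log2 fold change 3.16, each with an adjusted p under 0.05 and none called), where the score reached 0.34 to 4.10 with FGF21 lost and -0.93 to 0.41 in WT, and all 8 macrophage genes lay above 0 (median 0.18, none called). Their part in the members' values was not tested. For Ifi44, Isg15, Parp14 and Stat2 each FGF21 KO library lay below each WT library, where 2.96% of all genes did not overlap in either direction.

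In UCP1 KO against dKO muscle (0% of all genes called) 18 members had an unadjusted p under 0.05, all higher, against 5.73% of all genes in that direction, 39 of 40 were above 0 (48.4%) and the median was 0.37. Isg15 was 1.78, 1.82, 2.23, 2.51 and 2.74 CPM in UCP1 KO and 0.610, 1.65, 1.62, 1.29 and 1.16 in dKO (0.80 ± 0.21, adjusted p = 0.168). Ifi35 was 18.9, 17.9, 16.1, 19.6 and 16.8 CPM in UCP1 KO and 12.1, 13.1, 15.5, 14.4 and 15.3 in dKO (0.34 ± 0.09, adjusted p = 0.168). Bst2 had 0.65 ± 0.18, adjusted p = 0.2. The 5 adipocyte genes all lay below 0 in this comparison (median -0.86) and the 5 endothelial genes above it (median 0.20), 3 of each at an unadjusted p under 0.05 and none called, and their part was not tested. The members Isg15 and Ifi35 did not overlap between groups, with UCP1 KO higher, as in 0.794% of all genes. In UCP1 KO against WT (0.0265% of all genes called) 3 members had an unadjusted p under 0.05, all higher (4.98%), Oas3 (1.07 ± 0.37, adjusted p = 0.348), Mx1 (0.73 ± 0.26, adjusted p = 0.367) and Oasl1 (0.52 ± 0.24, adjusted p = 0.5), and the median was 0.15. There the 8 macrophage genes all lay above 0 (median 0.18) and the 5 adipocyte genes below 0 (median -0.63), none of them called, and their part was not tested. UCP1 KO replicate 4 was the highest of the 20 muscle libraries for 33 of the 40 members, with a class I level of 5.40 against 4.35 to 4.65 in the other 4. Its macrophage score was 4.38, against 3.97 to 4.62 in the others.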

How the data were processed

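The deposited files hold read counts per gene symbol, whole numbers made by the authors from poly(A)-selected, stranded, paired-end libraries aligned with STAR to mm10 and counted with HTSeq-count. Whether the counting used strand is not given in the sources used here. A row that names no gene held at most 3.42e-05% of a library and was left out. No 2 libraries held identical counts. The authors' counts had no prior normalization.

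In each tissue a gene was kept if its largest count exceeded 15, its counts summed to over 75 and at most 10 libraries were at 0, libraries were scaled by TMM, and edgeR 4.0.16 (R 4.3.3) quasi-likelihood F tests were fitted over the 4 genotypes with Benjamini-Hochberg adjustment over all genes tested. A call is an adjusted p under 0.01, and log2 fold changes are those of the edgeR fits at their default prior count. A prior count of 2 was used for log2 CPM values only, not in these fits. The BAT minus iWAT difference came from 1 model of 80 libraries. Levels are means of log2(CPM + 0.1), by library totals for marker scores and by TMM for members, a change from library totals made after seeing the data. With 5 libraries against 5, an exact permutation test cannot go below p = 0.00794. The procedure was tested on simulated data.

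The members and lists were chosen with earlier results of these data known. Named are the members called over the 4 genotypes (at most 12 by p), the called members of a comparison (at most 15 by size, and here all), the 3 of smallest p where none was called, and the highest and lowest per length. Alternatives were DESeq2 1.42.0, RLE factors, no filter, a threshold of 0.05, marker scores as covariates and leaving out each library.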

Additional observations from a re-analysis of the deposited data

Results flagged for a closer look

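A level or CPM value is listed here where the highest or lowest library of a group of 5 lay further from its nearest neighbour than 0.71 of the group's whole range. For independent, normally spread values such a gap arises in about 1 of 20 groups. Among role levels (mean log2(CPM + 0.1)) 12 of 96 groups had such a library, and among the 23 members called in BAT 21 of 92 did. The CPM values were not on a log scale, and most BAT flags came from the same library, dKO replicate 2. These shares therefore cannot be set against 1 of 20.

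In BAT dKO replicate 2 was the highest dKO library for the transcription factors (5.64), the sensors (4.74), the antiviral effectors (4.99), the ISG15 system (5.34) and the GTPases (5.71). By gene it was the highest dKO library for Irf7 (102 CPM), Zbp1 (17.1), Ifit1 (48.9), Ifit2 (41.8), Ifit3 (71.6), Oas1a (12.2), Oas3 (9.29), Oasl1 (27.9), Oasl2 (38.2), Mx1 (20.1), Mx2 (9.63), Rsad2 (180), Bst2 (96.4), Ifi44 (34.3), Isg15 (38.9), Usp18 (35.4), Iigp1 (91.1) and B2m (810). Its macrophage score was the highest of dKO and its skeletal muscle score the lowest, and their part in these values was not tested. The other BAT values were Ifit3 in FGF21 KO replicate 3 (14.2 CPM, highest), Mx1 in WT replicate 3 (0.385, lowest) and Parp9 in WT replicate 5 (32.1, highest).

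In iWAT the transcription factor level of WT replicate 5 was the highest of its group (6.89), and the class I level of FGF21 KO replicate 2 the lowest of its group (8.46); the first is 1 of 2 WT libraries with a lymph node score above 4, and the second is the only FGF21 KO library without one. In liver the class I level of dKO replicate 2 was the lowest (6.62). In muscle the ISG15 system level was highest in FGF21 KO replicate 5 (2.89) and lowest in dKO replicate 1 (2.47), and UCP1 KO replicate 4 had the highest levels of the GTPases (4.86) and class I genes (5.40).

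The effect of UCP1 loss differed between BAT and iWAT, by the test of the difference on the log2 scale, for Irf7 (2.14), Oas3 (2.99), Oasl1 (2.33), Mx1 (3.57), Parp9 (0.713), Dtx3l (0.814) and B2m (0.922), larger in BAT each time.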

How the results depend on the processing

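No paired analysis was possible because the labels give no replicate numbers and no link from a library to a mouse, and the numbers used here only name the libraries. In BAT the count of members called in UCP1 KO against WT (23) went to 0 with the macrophage score as a covariate and to 0 with the macrophage and skeletal muscle scores together, a fit chosen after seeing the data, and ran from 13 (without WT replicate 3 or UCP1 KO replicate 2) to 33 (without UCP1 KO replicate 1) with 1 library left out. It was 14 without WT replicate 4 and 15 without WT replicate 2. The count over the 4 genotypes (29) went to 16 with the skeletal muscle score and to 1 with the macrophage score, and ran from 14 (without UCP1 KO replicate 2) to 39 (without dKO replicate 2), with 18 without UCP1 KO replicate 4 and 19 without UCP1 KO replicate 5. DESeq2 called 2 members in place of 0 in UCP1 KO against dKO and 4 in place of 0 in dKO against FGF21 KO, where an adjusted p under 0.05 gave 6. In muscle over the 4 genotypes DESeq2 called 3 in place of 0, and a threshold of 0.05 gave 1. The difference between BAT and iWAT (7) became 12 with DESeq2 and 19 at 0.05, and ran from 3 (without iWAT UCP1 KO replicate 5) to 15 (without BAT UCP1 KO replicate 1), with 4 without iWAT WT replicate 5 or BAT UCP1 KO replicates 2 or 5, and 12 without iWAT UCP1 KO replicate 4 or BAT UCP1 KO replicate 3. With 1 library left out, the other counts so tested stayed at 0, while dKO against FGF21 KO and the interaction in liver and muscle were not refitted. With library totals alone, a scaling chosen after seeing the data, the members highest in iWAT and liver numbered 33 and 7, in place of 19 and 20.

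With the macrophage score the difference between UCP1 KO and WT in BAT turned negative on the log2 scale for Irf7 (-0.16), Zbp1 (-0.18), Ifit1 (-0.49), Ifit2 (-0.62), Ifit3 (-0.45), Oas1a (-0.18), Oasl1 (-0.13), Oasl2 (-0.38), Mx2 (-0.41), Bst2 (-0.36), Ifi44 (-0.15), Isg15 (-0.32), Usp18 (-0.48) and Parp14 (-0.11), none of them called, and with both scores for Ifit1 (-0.17), Ifit2 (-0.40), Ifit3 (-0.11), Oasl2 (-0.16), Mx2 (-0.13), Bst2 (-0.17), Usp18 (-0.15) and Parp14 (-0.0342). In iWAT Mx1 in FGF21 KO against WT was -0.64 at a lymph node score of at most 4, where FGF21 KO kept 1 library, assumed to vary like the other groups. The cause of these changes was not tested. With 1 library left out, Bst2 lost its BAT call in 14 fits, Ifit2 in 11, and Mx2 and Parp14 in 7 each, while Dtx3l, Parp9, Mx1, Rsad2, Oas2, Oas3, Oasl1, Zbp1, Oas1a, Ifi44, Isg15 and Nlrc5 lost it in none. Low counts limit Oas3 and Mx1 in WT BAT, and the interferon genes throughout.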
